A study of Mus musculus with 6 samples.

Results

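Receptors for extracellular ATP and ADP were examined in bulk RNA sequencing of mouse dorsal root ganglia, which hold the cell bodies of the sensory neurons that serve the trunk, limbs and inner organs. The set held 10 genes of the 57180 in the count table, chosen by gene name: the P2X channel genes P2rx2, P2rx3, P2rx4, P2rx5, P2rx6 and P2rx7 and the P2Y receptor genes P2ry1, P2ry2, P2ry12 and P2ry14. Ganglia from thoracic level 8 to lumbar level 2 were taken 24 h after kidney surgery from 6 wild-type mice, under Zoletil anesthesia, with 1 library per mouse. In the 3 mice of the I/R (ischemia-reperfusion) group the left renal pedicle was clamped for 28 min and released, and the right kidney was removed. The 3 sham mice had the same operation without the clamp. The labels do not state separately that sham mice lost the right kidney, and give neither sex, age nor strain.

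ATP is held inside cells and leaves them when they are damaged or stretched, or when vesicles release it. P2X receptors are cation channels, trimers that open when ATP binds, whereas P2Y receptors are coupled to G proteins and respond to ATP, ADP, UTP, UDP or UDP-sugars. In sensory ganglia P2X3 is known as the ATP-gated channel of small-diameter nociceptors, alone or in heteromers with P2X2, while P2X4, P2X7 and several P2Y receptors are best known from glia, macrophages, endothelium and platelets. P2Y14 is activated by UDP-glucose and P2Y2 by UTP as well as ATP, so the set is somewhat wider than receptors for ATP and ADP.

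No difference between I/R and sham ganglia was called for any of the 10 receptor genes. All 10 passed the filter on low counts, and 0 were higher or lower at an adjusted p under 0.05 in edgeR's quasi-likelihood test, against 1.15% of the 16346 genes tested. At an unadjusted p under 0.05 the count was 0 of 10 in edgeR's test, DESeq2 and limma-voom, against 10.5% of all genes tested in edgeR. In 4 alternative edgeR fits the count became 1 of 10, which was P2rx7. Its unadjusted p was 0.0479 with RLE scaling, 0.0468 with upper-quartile scaling, 0.0383 with a CPM of at least 1 in 3 libraries and 0.0402 without I/R 3. The log2 fold changes of I/R over sham ran from -0.28 for P2ry14 to 0.03 for P2rx4, with 4 genes above 0 and 6 below and a median of -0.06, against a median of 0.00 over all genes tested. The 95% interval of the difference lay inside a 2-fold change in both directions for all 10 genes, and inside a 1.5-fold change for 9 of them, the exception being P2ry14. In DESeq2, 7 intervals lay inside 1.5-fold, with P2rx2 and P2ry12 also reaching past it. Of all genes tested, 85.6% had an interval inside 2-fold and 63.9% inside 1.5-fold. These intervals are per gene and are not adjusted for the number of genes.

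**Figure D1:**
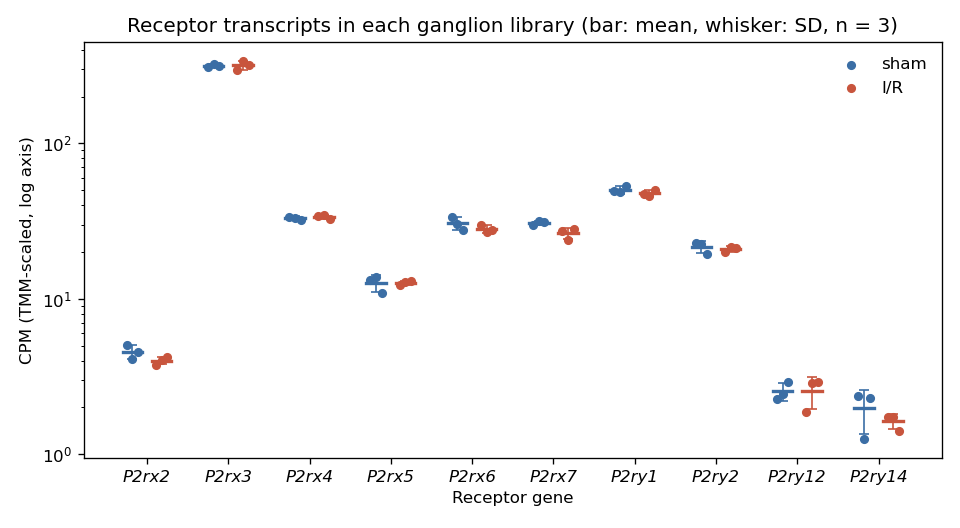
Counts scaled to library size (CPM, log axis) of the 10 receptor genes in each of 3 sham and 3 I/R libraries, with the mean as a bar and the SD as a whisker. The groups overlap for every gene but P2rx7, whose 3 I/R values, from 24.0 to 28.0 CPM, lie under the 3 sham values, from 29.8 to 31.7 CPM.

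Library totals ran from 19092650 to 22010227 expected counts, and 3 counts, the most that a count of 0 allows, came to between 0.137 and 0.154 CPM. The ganglion identity of the libraries was visible in neuronal genes: 8 of 8 pan-neuronal genes were detected, with a summed level of 9010 to 9476 CPM in sham and 8638 to 10320 CPM in I/R, and 0 of 8 were called. The neuron injury genes, in contrast, rose from a summed 249 to 271 CPM in sham to 599 to 772 CPM in I/R, with 7 of 8 called higher. Skeletal muscle genes summed to 599, 54.4 and 345 CPM in sham 1 to 3 and to between 43.4 and 68.6 CPM in I/R. Of these sums, Pvalb, also a neuronal gene, gave 59.3, 40.2 and 73.5 CPM in sham and 63.8, 41.4 and 35.1 CPM in I/R. Pvalb was most of the sum in sham 2 and in every I/R library. The sums therefore do not show that sham 2 and I/R were alike in muscle. Muscle transcripts were thus highest in sham 1 and sham 3, and values against sham 2 alone are given where they bear on a receptor. In bulk ganglia a smaller number of cells of a type and less RNA per cell cannot be told apart.

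P2rx3, the channel gene of nociceptors, was by far the most abundant of the 10. Its level per length, in TPM (read counts divided by gene length and scaled to the same total in every library, from the deposited counts and lengths), was 447 ± 32.8 over the 6 libraries, above 97.9% of the genes tested. P2ry1 followed at 34.7 ± 2.17 TPM, P2rx6 at 32.0 ± 2.92 TPM and P2rx4 at 31.6 ± 1.5 TPM, and the ranges of these neighbors overlapped. P2ry2, a Gq-coupled receptor for ATP and UTP, stood at 20.2 ± 1.93 TPM, apart from its neighbors on both sides. P2rx7 at 14.8 ± 1.54 TPM and P2rx5 at 13.5 ± 1.51 TPM overlapped each other. P2rx2, the partner of P2rx3 in heteromers, came to 5.80 ± 0.679 TPM, apart from P2rx5 above it and P2ry12 below it. The lowest were P2ry12 at 3.11 ± 0.582 TPM and P2ry14 at 1.85 ± 0.439 TPM, whose ranges overlapped. The order was described over all 6 libraries and was not tested.

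**Figure D2:**
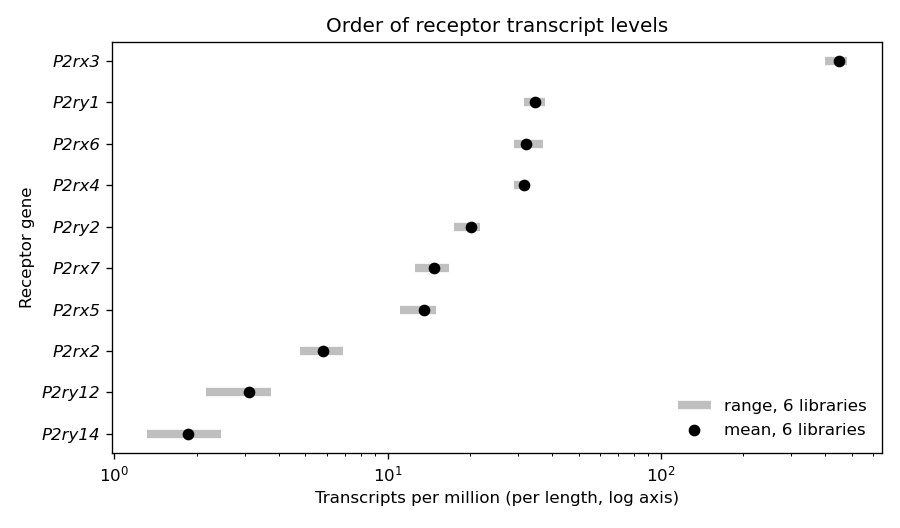
TPM, the level per gene length (log axis), of the 10 receptor genes, ordered by the mean over 6 libraries, with the lowest to highest library as a grey bar. P2rx3 stands alone at the top, P2ry1, P2rx6 and P2rx4 overlap, and P2ry12 and P2ry14 are lowest.

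P2rx3 also dominated its family. It made up 81.6 ± 0.857% of the summed P2X transcripts per length in sham and 82.4 ± 1.17% in I/R (SD, n = 3 each). The other shares were small in both groups: 5.74% and 5.87% for P2rx4, 6.10% and 5.68% for P2rx6, 2.93% and 2.53% for P2rx7, 2.47% and 2.49% for P2rx5, and 1.13% and 0.996% for P2rx2, sham first. Among the 4 P2Y genes, P2ry1 held 58.2 ± 2.44% in sham and 57.9 ± 1.8% in I/R, and P2ry2 held 33.4 ± 3.46% and 33.9 ± 1.06%. Summed, the P2X genes came to 548, 569 and 513 TPM in sham 1 to 3 and to 489, 575 and 576 TPM in I/R 1 to 3. The P2Y sums were 62.1, 60.9 and 59.6 TPM in sham and 53.4, 59.1 and 64.1 TPM in I/R. Both sums overlapped between the groups, and I/R 1 was the lowest of the 6 libraries in each.

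The nociceptor channel genes showed no called difference. P2rx3 measured 311, 324 and 312 CPM in the sham libraries (1 to 3), against 297, 336 and 319 CPM in the I/R libraries. The I/R values surrounded the sham values, and both the lowest and the highest library were of the I/R group. The log2 fold change was 0.01 ± 0.09 (SE), with a 95% interval of -0.18 to 0.20, which is 0.88-fold to 1.15-fold (adjusted p = 0.98). P2rx3 overlaps Ssrp1, a chaperone gene on the opposite strand, in the GENCODE annotation. The strand setting of the counting is not given in the sources used here. For Ssrp1 the difference was -0.09 ± 0.10 (log2, adjusted p = 0.82), and the counts of both genes were whole numbers in all libraries.

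P2rx2, whose subunit lends the heteromer a slower desensitization, measured 5.06, 4.10 and 4.58 CPM in the sham libraries (1 to 3), against 3.76, 4.07 and 4.20 CPM in the I/R libraries. Here I/R 3 lay above sham 2 and the other two I/R values lay below all sham values. The difference of -0.19 ± 0.16 had an interval of -0.55 to 0.17 (adjusted p = 0.73), and against sham 2 alone it was -0.06. Per length, P2rx3 exceeded P2rx2 64.2-fold, 82.6-fold and 71.3-fold in sham and 82.8-fold, 86.4-fold and 79.4-fold in I/R. The ratio overlapped between the groups (exact two-sided permutation p = 0.2, and 0.4 adjusted over 4 ratios, where 3 against 3 cannot go below 0.1).

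Other markers of the neurons that carry P2X3 lay mostly below 0, with none called in edgeR. Of 13 non-peptidergic and pruriceptive nociceptor genes, 10 lay below 0 and 3 above, with a median log2 fold change of -0.23, and 6 had an unadjusted p under 0.05, against 10.5% of all genes tested. The smallest of these p belonged to Gfra1, a GDNF receptor gene, which was higher in I/R without overlap (0.40 ± 0.09, adjusted p = 0.084), and the other 5 lay below 0. Mrgprd, the receptor gene that marks the main non-peptidergic class, differed by -0.30 ± 0.14 (log2, adjusted p = 0.48). The summed level of the 13 genes was 3090 to 3554 CPM in sham and 2772 to 3444 CPM in I/R, so the groups overlapped. The difference between P2rx3 and these genes was not tested.

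P2rx7 and P2rx4 lie next to each other on the same strand and encode the channels best known from macrophages and glia. P2X7 opens at high ATP and is known for driving inflammasome assembly and release of interleukin 1 beta, whereas P2X4 opens at low ATP and is partly held in lysosomes. P2rx7 measured 29.8, 31.7 and 31.1 CPM in the sham libraries (1 to 3), against 27.3, 24.0 and 28.0 CPM in the I/R libraries. All 3 I/R values lay below all 3 sham values, which made it 1 of 10 receptor genes without overlap, against 17.1% of genes tested. The log2 fold change was -0.22 ± 0.10, with an interval of -0.45 to 0.01, and P2rx7 had the smallest p of the 10 (unadjusted 0.0548, adjusted p = 0.49 in edgeR). It was between -0.27 and -0.18 with each library left out in turn, with no call, and -0.29 against sham 2 alone, a fit whose spread comes from the I/R libraries only.

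P2rx4 read 33.8, 33.3 and 32.1 CPM in sham ganglia against 34.0, 34.5 and 32.6 CPM in I/R ganglia, a span of less than 3 CPM over all libraries. Its log2 fold change of 0.03 ± 0.09 had an interval of -0.18 to 0.23 (adjusted p = 0.94). Its counts were not whole in 5 libraries, though no gene overlaps it in the annotation at hand. Per length, P2rx4 exceeded P2rx7 2.07-fold, 1.92-fold and 1.89-fold in sham and 2.27-fold, 2.62-fold and 2.13-fold in I/R. The I/R ratios lay above the sham ratios. The exact two-sided permutation test gave p = 0.1, the smallest it can give with 3 against 3, and 0.4 adjusted over the 4 ratios, so the ratio is not shown to differ.

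P2rx5 and P2rx6, subunits with weak channel function of their own in rodents, also overlapped between the groups. P2rx5 read 13.2, 13.8 and 10.8 CPM in sham ganglia against 12.3, 12.7 and 13.05 CPM in I/R ganglia. Sham 3 was the lowest of the 6 libraries, and the log2 fold change was 0.01 ± 0.13 (interval -0.28 to 0.29, adjusted p = 0.99). P2rx6 read 33.6, 30.3 and 27.7 CPM in sham ganglia against 30.0, 26.9 and 27.7 CPM in I/R ganglia. Its difference was -0.11 ± 0.11 (interval -0.36 to 0.13, adjusted p = 0.77). P2rx6 is known from skeletal muscle as well. It was highest in sham 1, which had the highest muscle sum (599 CPM), and lowest among sham in sham 3, which had the next highest (345 CPM). The difference was -0.04 without sham 1 and -0.12 against sham 2 alone, and the part of muscle in it was not tested. The gene overlaps Slc7a4 on the opposite strand. Its counts were not whole in 3 of the 6 libraries, and in all 3 the counts of the pair added up to a whole number within 0.011 counts, so the split of shared reads between them is uncertain. Slc7a4 itself differed by -0.18 ± 0.11 (log2, adjusted p = 0.64).

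**Figure D3:**
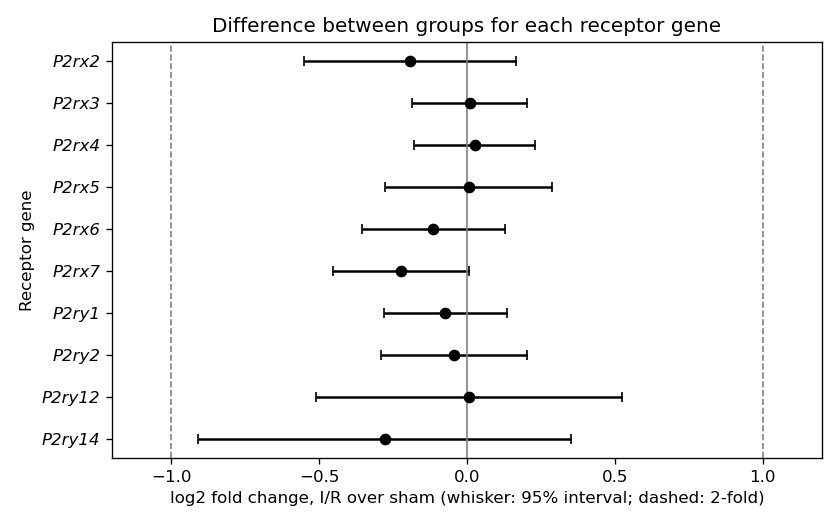
Log2 fold change of I/R over sham for each receptor gene (points) with its 95% interval from edgeR (whiskers), and dashed lines at a 2-fold change. All 10 intervals lie between the dashed lines and include 0, and they are widest for P2ry12 and P2ry14, the genes with the lowest counts.

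The Gq-coupled receptor genes were close between groups. P2ry1, an ADP receptor of sensory neurons, endothelium and platelets, measured 49.2, 48.3 and 53.5 CPM in the sham libraries (1 to 3), against 47.2, 46.1 and 50.2 CPM in the I/R libraries. I/R 3 lay among the sham values and the others lay just below them, with a log2 fold change of -0.07 ± 0.09 (interval -0.28 to 0.13, adjusted p = 0.83). An antisense gene, Gm37035, overlaps P2ry1, and the counts of the pair added up to a whole number in all 6 libraries, so their split is uncertain too. Gm37035 was given 18.6 to 61.9 counts per library and P2ry1 952 to 1100.4. P2ry2 read 22.8, 22.5 and 19.3 CPM in sham ganglia against 19.9, 21.6 and 21.1 CPM in I/R ganglia. All 3 I/R values fell between the lowest and the highest sham value, with a log2 fold change of -0.04 ± 0.11 (interval -0.29 to 0.20, adjusted p = 0.92).

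The Gi-coupled receptor genes had the lowest counts and the widest intervals of the 10. P2ry12, the ADP receptor of platelets and microglia that is blocked by clopidogrel, had 46, 49 and 57 counts in sham and 38, 59 and 64 counts in I/R, or 2.26, 2.45 and 2.93 CPM against 1.88, 2.86 and 2.92 CPM. The groups overlapped, and the log2 fold change of 0.01 ± 0.23 had an interval of -0.51 to 0.52 (adjusted p = 0.996), so a change of up to 1.44-fold upward or down to 0.701-fold was not excluded. P2ry14, the UDP-glucose receptor, had 48, 25 and 45 counts in sham and 35, 36 and 31 counts in I/R. Its CPM were 2.36, 1.25 and 2.31 against 1.73, 1.74 and 1.41, with sham 2 the lowest of all 6. The log2 fold change was -0.28 ± 0.28 (interval -0.91 to 0.35, adjusted p = 0.79). It was -0.52 without sham 2 and 0.36 against sham 2 alone, so the sign turned when sham 2 was the only sham library. Both genes overlap the span of Med12l, which runs on the opposite strand and differed by 0.11 ± 0.10 (log2, adjusted p = 0.76).

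Markers of cells that could carry these receptors were read beside them, and their part in the receptor values was not tested. Of 13 macrophage genes, 11 lay above 0 and 2 below with a median of 0.31, and Cd163, a hemoglobin scavenger receptor, was the 1 gene called (1.01 ± 0.20, adjusted p = 0.046 in edgeR). That call was absent in each of the 6 fits with 1 library left out (adjusted p 0.076 to 0.16), with upper-quartile scaling (0.051), with the CPM filter (0.0578) and in limma-voom (0.0637), and held in 3 of 14 alternatives. Their summed level was 148 to 158 CPM in sham and 161 to 170 CPM in I/R, without overlap, while P2rx4, P2rx7 and P2ry12 had 0.03, -0.22 and 0.01. Of 8 satellite glia genes, 4 lay above 0 and 4 below, and Fabp7, a fatty acid binding protein of satellite glia, fell, with a log2 value of -0.99 ± 0.17 (adjusted p = 0.019). The call for Fabp7 did not hold in fits leaving out sham 1, leaving out I/R 2 and leaving out I/R 3 (adjusted p 0.068, 0.073 and 0.13), and held in 9 of 14 alternatives. Platelet genes summed to 38.2 to 44.3 CPM in sham and 28.3 to 30.4 CPM in I/R, of which most was Itgb3, an integrin that other cells also make. Of the other 6 platelet genes, Itga2b had 77 to 102 counts per library, Pf4 13 to 39, Gp1ba 7 to 17, Tubb1 3 to 5, Ppbp 0 to 7 and Gp9 0 to 2. Of 6 red cell genes tested 5 were called lower, with sums of 184 to 274 CPM in sham against 53.7 to 88.2 CPM in I/R. Of 7 endothelial genes 0 were called, with sums of 141 to 155 CPM in sham and 149 to 150 CPM in I/R. Fibroblast and meningeal genes, 8 of 10 called lower, summed to 717 to 880 CPM in sham and to 362 to 435 CPM in I/R.

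The remaining receptors of the family were scarce. P2ry6, a UDP receptor that neighbors P2ry2, was the 1 tested of 6, with 13, 26 and 18 counts in sham and 25, 20 and 30 counts in I/R, a difference of 0.32 ± 0.33 (log2, adjusted p = 0.79). P2ry13, an ADP receptor beside P2ry12, had 2, 7 and 7 counts in sham and 5, 9 and 6 counts in I/R. P2rx1, the ATP channel of platelets and smooth muscle, had 0, 2 and 3 counts in sham and 1 in each I/R library. P2ry4, P2ry10 and P2ry10b had at most 4 counts in any library. These 5 genes were left out by the filter on low counts, and their levels do not support a comparison.

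Genes that supply, break down or pass on purine signals were followed in 7 lists. Of 59 genes, 46 were tested and 0 were called higher or lower in edgeR. An unadjusted p under 0.05 was seen for 4 of the 46 (8.7%, against 10.5% of all genes tested), and 10 of the 46 (21.7%, against 17.1%) did not overlap between the groups. The median log2 fold change was 0.02, with 25 genes above 0 and 21 below.

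**Figure D4:**
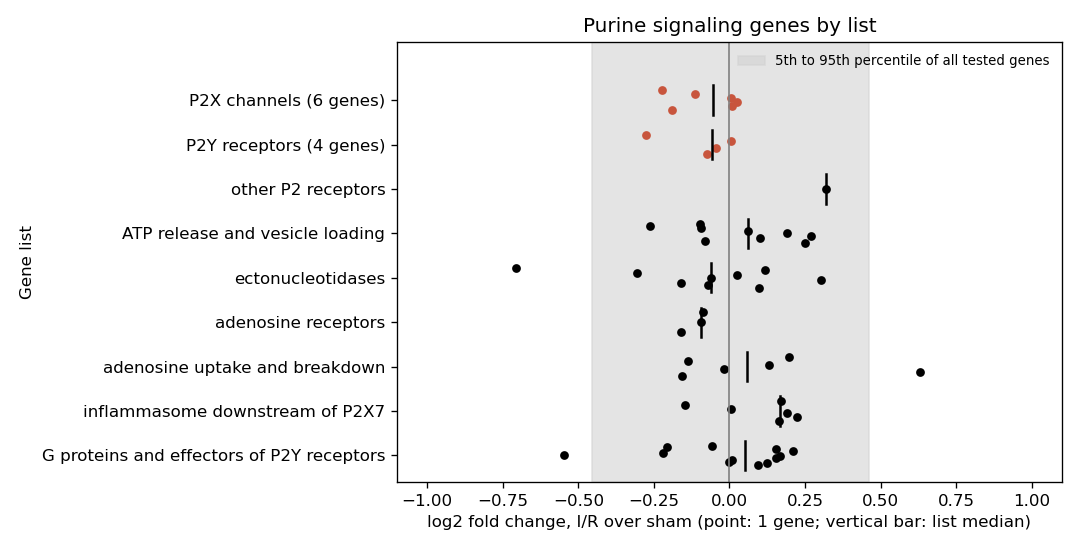
Log2 fold change of I/R over sham for each tested gene (points) of the P2X and P2Y receptors and of 7 lists of purine signaling, with list medians as vertical bars and the 5th to 95th percentile of all genes tested, -0.46 to 0.46, in grey. Alpl, Slc29a2 and Plcb2 lie outside the grey band, and the 10 receptor genes lie inside it.

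ATP release genes were represented by 9 tested genes, of which 5 lay above 0 and 4 below. Panx1, the pannexin channel through which ATP leaves cells, read 60.8, 60.2 and 57.2 CPM in sham ganglia against 68.9, 72.2 and 70.7 CPM in I/R ganglia. The groups did not overlap, but the difference of 0.25 ± 0.09 was not called (adjusted p = 0.31). The volume-regulated anion channel genes Lrrc8b and Lrrc8c had log2 fold changes of 0.27 ± 0.13 and 0.19 ± 0.11 (adjusted p = 0.53 and 0.63). Slc17a9, the transporter that loads ATP into vesicles, had 3, 5 and 2 counts in sham and 8, 10 and 11 counts in I/R. It did not pass the filter, and in the fit without a filter its log2 fold change of 1.43 ± 0.64 was not called (adjusted p = 0.47).

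Ectonucleotidases, as a class enzymes that break down extracellular nucleotides, were tested for 9 genes. Alpl, tissue-nonspecific alkaline phosphatase, read 13.99, 14.9 and 11.4 CPM in sham ganglia against 7.17, 9.35 and 8.12 CPM in I/R ganglia, without overlap. It missed the threshold in edgeR (log2 fold change -0.71 ± 0.15, adjusted p = 0.066) and passed it in DESeq2 (adjusted p = 0.0082), in edgeR without the filter on low counts (adjusted p = 0.0058) and without sham 3 (adjusted p = 0.049). Nt5e, which turns AMP into adenosine, read 59.3, 53.0 and 53.5 CPM in sham ganglia against 60.8, 69.6 and 73.9 CPM in I/R ganglia (0.30 ± 0.10, adjusted p = 0.31). Enpp2, autotaxin, differed by -0.31 ± 0.14 (log2, adjusted p = 0.48). Acp3, the acid phosphatase that marks the same non-peptidergic neurons as P2X3, had 471 to 492 CPM in sham and 401 to 520 CPM in I/R, and the groups overlapped.

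Adenosine genes also gave no call in edgeR with its filter on low counts. The receptor genes Adora1, Adora2a and Adora2b had log2 fold changes of -0.16, -0.09 and -0.09, none called (adjusted p = 0.66 to 0.92). Slc29a2, an equilibrative nucleoside transporter, read 10.3, 10.9 and 7.40 CPM in sham ganglia against 12.7, 16.5 and 15.1 CPM in I/R ganglia. Its difference of 0.63 ± 0.17 was not called (adjusted p = 0.15), but was called without the filter on low counts (adjusted p = 0.023). Its relative Slc29a1 and the adenosine kinase gene Adk had -0.16 ± 0.09 and -0.14 ± 0.09 (adjusted p = 0.61 and 0.65), both without overlap between the groups.

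Of 6 tested inflammasome genes downstream of P2X7, 5 lay above 0 and 1 below, none called, with a median of 0.17. Nek7, a kinase that binds NLRP3, had 0.17 ± 0.12, Casp1 had 0.22 ± 0.27 and Gsdmd, the pore-forming gasdermin, had -0.15 ± 0.23 (adjusted p = 0.69, 0.82 and 0.87). Il1b had at most 4 counts in any library. Of 12 G proteins and effectors of P2Y receptors, none was called. Plcb4 had 0.21 ± 0.12, Gnai3 had 0.15 ± 0.09 and Plcb2 had -0.55 ± 0.33 (adjusted p = 0.61, 0.62 and 0.63).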

How the data were processed

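The data were 6 dorsal root ganglion libraries, 3 sham and 3 I/R, prepared from TRIzol-extracted RNA with Illumina's stranded mRNA kit, per the labels' protocols. For fastp, HISAT2, StringTie and GRCm39 the submitters' processing notes give names only. The sources used here do not give how reads were counted, or with which strand setting and gene annotation. The authors deposited an expected count (an estimated count of reads) per gene and library, unscaled, of which 10.7% to 11.5% per library were not whole. These were rounded before testing. The authors' 2 columns of group means were not used.

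Genes were tested with edgeR 4.0.16 in R 4.3.3 (quasi-likelihood test, TMM normalization, its filter on low counts, Benjamini-Hochberg adjustment over 16346 genes, threshold 0.05, two-sided). Standard errors were obtained from each coefficient and its F value, and 95% intervals from these with the test's degrees of freedom. The biological coefficient of variation was 13.2%. CPM are TMM-scaled, and TPM divide the count by the deposited gene length. The test was tested on simulated data. No pair of libraries of a group agreed within sampling noise (chi-square per degree of freedom 4.05 to 27.9). Counting limits cover counting error only, since reads carried no molecular identifiers. Overlapping and neighboring genes were read from GENCODE M21, which is on GRCm38, for names only.

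The receptor genes and all gene lists were chosen with earlier results of these data known. The text names every receptor, and from each pathway list the 3 genes of smallest p. From marker lists it names up to 4 called genes. Mrgprd, Gfra1, Acp3, the 7 platelet genes, Il1b and Slc17a9 are additions to this rule, picked once their values were known, as was Pvalb. Of called marker genes only those beside a receptor result are named. Alternatives were DESeq2 1.42.0, limma-voom (limma 3.58.1), scaling by RLE or upper quartile, 2 other filters, the replicate number as a block, leaving out each library, and sham 2 alone against I/R.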

Additional observations from a re-analysis of the deposited data

How the results depend on the processing

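None of the 10 receptor genes was called in any of the 14 alternatives. The count of called genes over the whole table was 188, and was 312 in DESeq2, 494 without a filter on low counts, 63 with the replicate block, 32 with sham 2 alone against I/R, and 87 to 181 with 1 library left out. Receptor values near 0 changed sign between settings, and so did P2ry14, at -0.28 in the reported fit, with sham 2 alone. With sham 2 alone the log2 fold change was -0.052 for P2rx3, -0.0077 for P2rx4, -0.15 for P2rx5 and 0.36 for P2ry14. P2rx3 was -0.0002 with upper-quartile scaling and -0.0084 with a CPM of at least 1 in 3 libraries. P2rx5 was -0.0006 with RLE, -0.0019 with upper-quartile scaling, -0.0007 in DESeq2 and -0.011 with the CPM filter. P2ry12 was -0.0018, -0.0041, -0.0023 and -0.013 in these 4 settings, -0.0093 in limma-voom and -0.0092 with the replicate block. With 1 library left out, values ran from -0.053 to 0.055 for P2rx3, -0.0086 to 0.050 for P2rx4, -0.091 to 0.075 for P2rx5, -0.12 to 0.0002 for P2ry2 and -0.10 to 0.18 for P2ry12. P2rx2, P2rx6, P2rx7 and P2ry1 lay below 0 in all 14 alternatives. The interval of P2ry14 reached past 2-fold without sham 2, I/R 1 or I/R 2 and with sham 2 alone, and the other 9 stayed inside 2-fold in every alternative. Inside 1.5-fold lay 9 intervals in the reported fit, 7 in DESeq2, 8 with the replicate block or no filter, 7 or 8 with 1 library left out and 6 with sham 2 alone. In that last fit the sham arm is 1 library, so a missing call there says little. The share of P2rx3 in the P2X sum, as a mean over all 6 libraries, was 82.0% per length and 74.5% by CPM without division by length. No pairing by replicate number was seen: deviations of same-numbered libraries correlated at -0.11, 0.14 and -0.12. The strongest correlation was 0.28, between sham 3 and I/R 1. Deviations were taken from the mean of 3 libraries, so these correlations depend on one another and cannot exclude pairing. With the replicate block the adjusted p was 0.105 for Cd163 and 0.203 for Fabp7. Depth limits P2ry12 and P2ry14 most, at 25 to 64 counts a library.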
